A study of Mus musculus with 24 samples.

Results

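The levels of 10 regulators of red blood cell formation and globin switching were followed in the mouse embryonic liver after endothelial deletion of the chromatin remodelers CHD4 and BRG1. The genes were taken by name from a deposited table of 25361 genes, and all 10 were found and passed the filter on low values. They fall into 3 roles. *Gata1*, *Zfpm1*, *Klf1* and *Nfe2* encode activators of erythroid genes or their cofactor. *Bcl11a*, *Zbtb7a*, *Sox6* and *Nr2c1* encode repressors of embryonic or fetal globin genes, and *Myb* and *Lin28b* encode regulators of the progenitor state and of the fetal blood programme.

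At midgestation the liver becomes the main site of definitive erythropoiesis. GATA1 and its cofactor FOG1 (*Zfpm1*) switch on erythroid genes together with KLF1, which binds CACCC boxes of globin promoters, and NF-E2 p45 (*Nfe2*), which acts at the globin locus control region. In definitive red cells BCL11A, LRF (*Zbtb7a*), SOX6 and TR2 (*Nr2c1*) silence embryonic or fetal globin genes, whereas MYB maintains immature progenitors and LIN28B sustains fetal features by blocking maturation of let-7 microRNAs. BCL11A and LRF both act with the NuRD complex, of which CHD4 is a subunit.

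The data comprise 24 RNA-seq libraries from livers at E12.5, 12 of them from CD146+ cells (LSECs, liver sinusoidal endothelial cells) and 12 from the flow-through of the CD146 beads (non-EC cells). Each fraction held 4 genotypes in 3 replicates. Controls were littermates without Cre. *Chd4-ECko* embryos were *Chd4fl/fl;Brg1fl/+;VE-cadherin-Cre+* and *Brg1-ECko* embryos were *Chd4fl/+;Brg1fl/fl;VE-cadherin-Cre+*, so that each single mutant was also heterozygous for the other gene. *Brg1/Chd4-ECdko* embryos, called double mutants here, were *Chd4fl/fl;Brg1fl/fl;VE-cadherin-Cre+*. The Cre is driven by an endothelial promoter and, per the study, is also active in some blood cells of the liver, and the mice had a mixed genetic background. The labels put all libraries in batch 1.

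The values are TPM, transcript abundances normalized to gene length and to the same total in every library, so that they do not show how many reads lie behind a value. The fractions matched their labels, with *Mcam*, which encodes CD146, at 34.8 to 64.8 TPM in LSECs and 0.250 to 0.841 TPM in non-EC cells. CD146 is the antigen of the beads, so this does not make the LSEC fraction purely endothelial. In control LSECs 8 endothelial markers summed to 1364 to 1790 TPM and 6 mesenchymal markers to 1010 to 1405 TPM. There 8 macrophage and myeloid markers summed to 686 to 784 TPM. In control non-EC cells these sums were 25.8 to 45.0, 21.3 to 48.2 and 195 to 367 TPM. Mitochondrial genes took 13.9% to 31.5% of all TPM in LSECs but 2.33% to 7.69% in non-EC cells. Transcript levels of *Chd4* and of *Smarca4*, which encodes BRG1, passed the test in no mutant (limma, adjusted p from 0.131 to 1.00), and since whole-gene TPM include exons outside the floxed ones this is no check of the deletion. LSEC *Brg1-ECko* replicate 1 stood apart, with 12314 TPM of the hepatoblast gene *Afp* against at most 3513 TPM in LSECs of the other genotypes, and the main results that rest on it are also given without it.

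*Bcl11a* lies at chr11:24027941-24124123, *Zbtb7a* at chr10:80970299-80989180, *Myb* at chr10:21000834-21036883, *Gata1* at chrX:7825499-7844310 and *Klf1* at chr8:85628557-85631934 of GRCm39, all protein-coding. To set the regulators beside their targets, the 250 bases before the start of the canonical transcript were searched on both strands for short motifs. The letters were AGATAA and also TGATAA for GATA1, found in 15.9% of 21770 promoters of protein-coding genes. For KLF1 they were CCACACCC and also CCCCACCC, found in 13.0%. TGACCA, for BCL11A, was in 10.4%, and AGGTCA, for NR2C1, in 13.1%. TGAGTCA, for NF-E2, was in 4.02%, and TAACGG with CAACGG, for MYB, in 6.38%. None of these motifs contains another. The 4 β-type globin genes are shown because the repressors act on the embryonic ones, *Hbb-bh1* and *Hbb-y*, which stand before the adult *Hbb-bt* and *Hbb-bs*, and 3 regulators follow. Each runs 5′ to 3′ on the strand of its gene, with matches in capitals, and a match on the opposite strand is written as its reverse complement.
Hbb-bh1, chr7:103492372-103492621, minus strand: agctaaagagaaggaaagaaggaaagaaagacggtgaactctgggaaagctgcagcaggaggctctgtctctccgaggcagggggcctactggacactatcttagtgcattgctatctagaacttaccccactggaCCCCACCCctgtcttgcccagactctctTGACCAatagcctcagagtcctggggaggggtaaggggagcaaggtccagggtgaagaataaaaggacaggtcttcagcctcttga
Hbb-y, chr7:103502424-103502673, minus strand: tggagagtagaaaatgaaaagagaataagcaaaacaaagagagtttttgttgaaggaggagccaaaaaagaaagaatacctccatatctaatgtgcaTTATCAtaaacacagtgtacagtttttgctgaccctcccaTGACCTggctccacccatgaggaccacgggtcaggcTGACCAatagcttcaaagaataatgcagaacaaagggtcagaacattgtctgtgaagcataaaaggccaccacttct
Hbb-bt, chr7:103463204-103463453, minus strand: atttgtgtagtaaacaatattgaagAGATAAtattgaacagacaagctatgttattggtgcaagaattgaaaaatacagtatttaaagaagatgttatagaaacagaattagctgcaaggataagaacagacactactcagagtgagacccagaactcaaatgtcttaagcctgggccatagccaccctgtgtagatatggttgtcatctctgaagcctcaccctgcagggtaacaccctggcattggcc
Hbb-bs, chr7:103477170-103477419, minus strand: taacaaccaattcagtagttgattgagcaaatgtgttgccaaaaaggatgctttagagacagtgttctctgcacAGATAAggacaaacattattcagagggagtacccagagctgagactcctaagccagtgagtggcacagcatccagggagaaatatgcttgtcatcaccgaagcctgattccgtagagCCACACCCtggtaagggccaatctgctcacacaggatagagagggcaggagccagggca
Gata1, chrX:7834150-7834399, minus strand: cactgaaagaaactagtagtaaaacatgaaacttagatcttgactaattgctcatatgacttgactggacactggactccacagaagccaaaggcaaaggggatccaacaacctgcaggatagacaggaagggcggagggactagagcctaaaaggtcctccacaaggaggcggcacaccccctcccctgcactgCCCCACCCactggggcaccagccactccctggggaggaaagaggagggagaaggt
Klf1, chr8:85628307-85628556, plus strand: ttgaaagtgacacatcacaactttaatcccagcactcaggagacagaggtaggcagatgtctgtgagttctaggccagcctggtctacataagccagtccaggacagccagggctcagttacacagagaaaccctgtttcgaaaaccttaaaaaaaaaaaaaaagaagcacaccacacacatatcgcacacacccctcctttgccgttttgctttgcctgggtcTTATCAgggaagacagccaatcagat
Bcl11a, chr11:24027691-24027940, plus strand: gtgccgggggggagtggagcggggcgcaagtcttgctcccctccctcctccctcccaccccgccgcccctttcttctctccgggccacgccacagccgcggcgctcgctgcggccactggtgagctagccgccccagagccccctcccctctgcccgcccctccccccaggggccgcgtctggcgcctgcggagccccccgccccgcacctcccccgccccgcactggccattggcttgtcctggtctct

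TGACCA stood from 86 to 81 bases before the start of *Hbb-bh1* and from 77 to 72 bases before that of *Hbb-y*, and it was in the window of neither adult β-type gene. Among the α-type genes it was the other way round, with TGACCA from 106 to 101 bases before the start of the adult *Hba-a1* and from 174 to 169 bases before that of *Hba-a2*, and none in the window of the embryonic *Hba-x*. *Hbb-bh1* also held a KLF1 match, *Hbb-y* a GATA1 and an NR2C1 match, *Hbb-bt* a GATA1 match and *Hbb-bs* both a GATA1 and a KLF1 match. The *Gata1* window held 1 KLF1 match and the *Klf1* window 1 GATA1 match. The *Bcl11a* window held none of these motifs, nor did those of *Zfpm1*, *Nfe2*, *Nr2c1* and *Myb*. A match describes letters and does not show binding.

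In control embryos, 9 of the 10 genes were lower in LSECs than in non-EC cells. Among all genes tested 67.1% passed between the fractions, 35.8% with the lower level in LSECs. *Myb* differed most, with 6.33, 4.78 and 4.17 TPM in control LSECs and 219, 176 and 232 TPM in control non-EC cells (log2 fold change -5.11 ± 0.44, adjusted p = 1.99e-09). *Klf1* was at 23.5, 39.8 and 15.9 TPM in LSECs and 321, 459 and 308 TPM in non-EC cells (-3.80 ± 0.49, adjusted p = 8.53e-07). For both genes the libraries of the fractions lay far apart. The mean in control LSECs was 2.44% of the non-EC mean for *Myb*, 7.27% for *Klf1*, 7.64% for *Gata1*, 9.77% for *Nfe2*, 12.7% for *Lin28b*, 17.3% for *Bcl11a*, 19.7% for *Zfpm1*, 29.8% for *Sox6* and 29.9% for *Zbtb7a*. *Nr2c1*, the exception, was at 6.22, 6.53 and 5.04 TPM in LSECs and 6.59, 5.42 and 7.69 TPM in non-EC cells, and these ranges overlap (-0.12 ± 0.17, adjusted p = 0.536). It passed under quantile normalization (-0.49, adjusted p = 0.00558).

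Other genes of the red lineage were low in control LSECs as well. Of 46 further erythroid and globin regulators 33 were lower and 6 higher, with a median log2 fold change of -0.79 against -0.09 over all genes. Of 23 target genes of KLF1 and GATA1 and erythroid markers 20 were lower and 1 higher (median -2.92). The 9 erythroid markers outside the 10 regulators summed to 67.6 to 228 TPM in control LSECs and 732 to 1719 TPM in control non-EC cells, and none was at 0 throughout a group. Their part in the LSEC levels of the regulators was not tested. In such bulk samples, fewer cells of a type and less RNA per cell cannot be told apart.

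**Figure D1:**
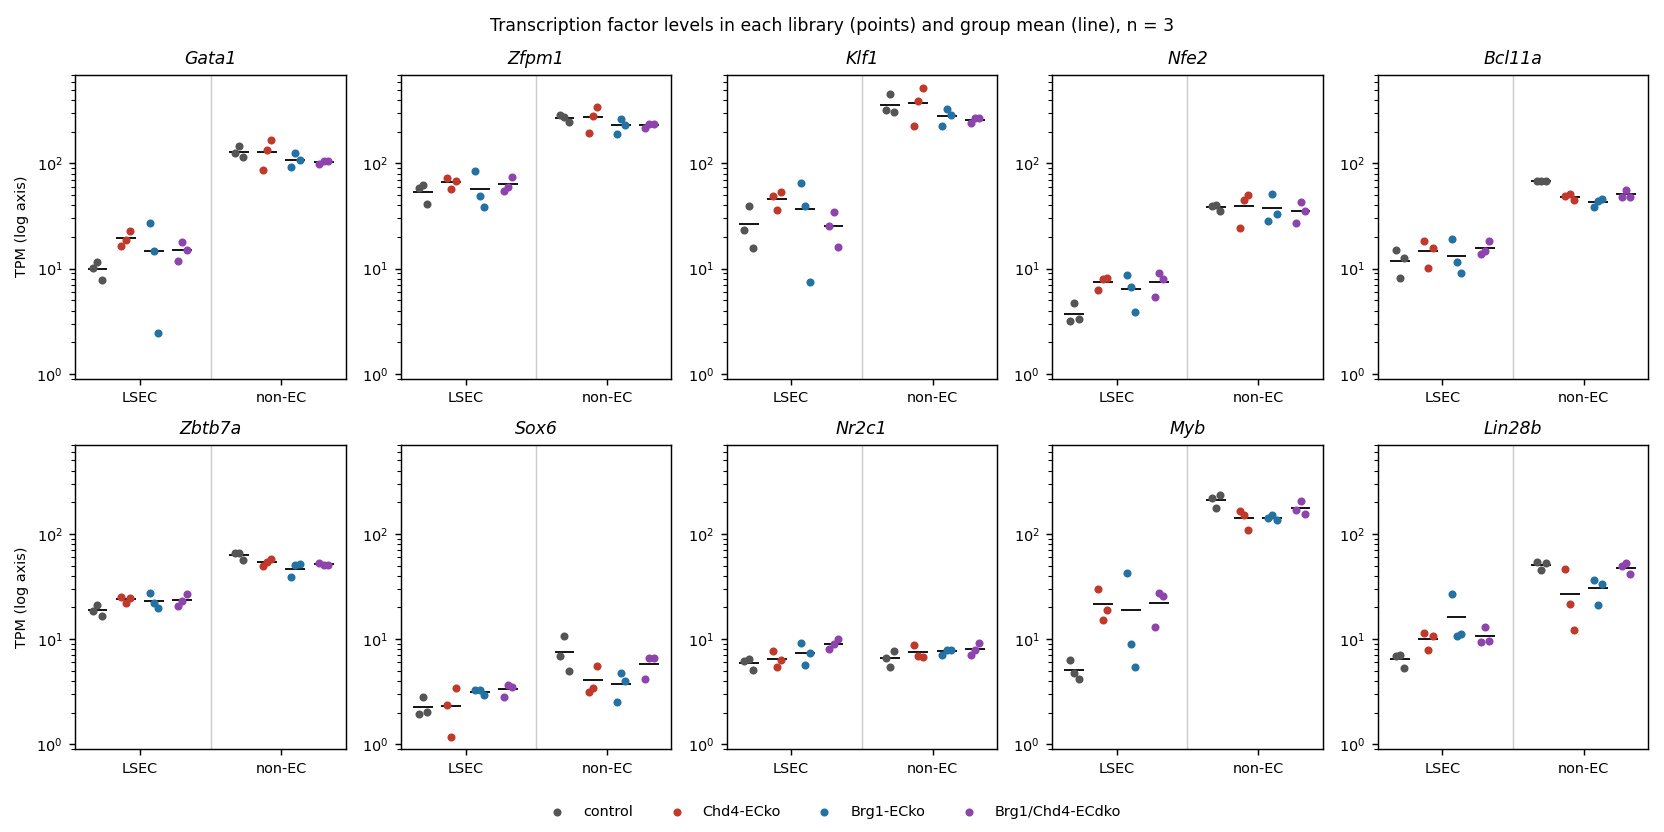
TPM of the 10 regulators in each library on a log axis, by fraction and genotype, with a point per library and a line at the mean of 3. Non-EC libraries lie above all LSEC libraries for 7 genes (*Gata1*, *Zfpm1*, *Klf1*, *Nfe2*, *Bcl11a*, *Zbtb7a* and *Myb*), while the fractions overlap for *Sox6*, *Nr2c1* and *Lin28b*.

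Across all 12 LSEC libraries *Gata1*, *Klf1* and *Myb* spread the most, with a highest level 11.1, 8.60 and 10.2 times the lowest, against 5.04 times for *Lin28b* and 1.65 to 3.15 times for the other 6. *Gata1* ran from 2.43 to 27.0 TPM (median 14.8) and *Klf1* from 7.51 to 64.5 TPM (median 35.1). Both extremes of these genes came from *Brg1-ECko* LSECs. Replicate 1, the library rich in *Afp*, was the highest of 12 for 7 of the 10 regulators, and replicate 3 the lowest for *Gata1*, *Zfpm1* and *Klf1*. Among the repressors, *Bcl11a* ran from 8.09 to 19.3 TPM, *Zbtb7a* from 16.5 to 27.2 TPM, *Nr2c1* from 5.04 to 9.96 TPM and *Sox6* from 1.16 to 3.67 TPM.

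Comparing each mutant with control asks whether endothelial loss of the remodelers changes these regulators in the CD146+ fraction. None of the 10 passed in any LSEC mutant (limma, adjusted p under 0.05). An unadjusted p under 0.05 was reached by 3 of them in *Chd4-ECko* (6.49% of all genes), 3 in *Brg1-ECko* (9.68%) and 4 in double mutant LSECs (12.1%), where 0.707%, 0.0223% and 0.87% of all genes passed. The median log2 fold changes of the 10 were 0.45, 0.27 and 0.48, against 0.01, 0.08 and 0.16 over all genes. The *Brg1-ECko* median includes replicate 1 and was not recomputed without it. Without that library the estimates of *Gata1*, *Klf1* and *Zfpm1* turned negative (-0.54, -0.47 and -0.28). All mutant libraries lay above all controls for 5 regulators in *Chd4-ECko* (8.7% of all genes), 2 in *Brg1-ECko* (10.9%) and 6 in double mutants (20.8%), and below for none (3.65%, 3.71% and 2.29% of all genes).

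*Myb*, which maintains blood progenitors, had the largest LSEC estimates. It was at 6.33, 4.78 and 4.17 TPM in control, 30.1, 15.4 and 19.1 TPM in *Chd4-ECko* and 13.1, 27.7 and 25.5 TPM in double mutant LSECs. Every one of these mutant libraries was above every control (1.85 ± 0.52, adjusted p = 0.177 in *Chd4-ECko*, and 1.87 ± 0.52, adjusted p = 0.140 in double mutants). *Brg1-ECko* LSECs had 42.4, 8.99 and 5.48 TPM, 1 high library and 2 closer to control (1.23 ± 0.52, adjusted p = 0.476, and 0.42 without replicate 1). Without that high library, replicate 1, the estimate passed in *Chd4-ECko* (adjusted p = 0.00418) and in the double mutant (adjusted p = 0.00346), as it did when a mutant was fitted with control alone (adjusted p = 0.00308 and 0.000705). Over all alternatives the adjusted p ran up to 0.544 and 0.516.

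Some markers of other blood cells also differed from control in these libraries, in both directions. The granulocyte gene *Mpo* was at 1.87, 0.874 and 0.585 TPM in control and 12.02, 4.83 and 5.85 TPM in *Chd4-ECko* LSECs, without overlap, and at 1.46, 4.08 and 5.90 TPM in double mutants, which overlaps with control. The 6 blood progenitor markers, *Mpo* among them, summed to 83.2 to 114 TPM in control, 77.3 to 84.3 TPM in *Chd4-ECko* and 55.0 to 93.0 TPM in double mutant LSECs, with 2 wholly above and 2 wholly below control in *Chd4-ECko* and 3 and 2 in the double mutant. The marker with the highest median was *Cd34* (48.2 TPM in LSECs and 39.5 TPM in non-EC cells), and *Mecom* was also higher in LSECs (median 8.30 against 0.697 TPM), so the sum is not specific to blood cells in this fraction. *Kit*, the stem cell factor receptor gene, was at 8.01, 6.399 and 5.95 TPM in control, 13.5, 7.56 and 11.4 TPM in *Chd4-ECko* and 10.9, 16.1 and 15.3 TPM in double mutant LSECs, the last wholly above control. The 8 macrophage and myeloid markers summed to 686 to 784 TPM in control and 794 to 1263 TPM in *Chd4-ECko* LSECs, 5 of them wholly above control. In double mutant LSECs they summed to 675 to 975 TPM, 2 of them wholly above and 1 wholly below control. Over the 12 LSEC libraries, which share genotypes, *Myb* followed the mean log level of the progenitor markers (r = 0.85) more closely than that of the erythroid markers (r = 0.32). For megakaryocyte markers r was 0.39, and for macrophage and myeloid markers 0.21. *Zfpm1* followed the progenitor markers as closely (r = 0.86). These values include *Brg1-ECko* replicate 1 and were not computed without it. The part of other blood cells in the *Myb* level was not tested.

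Of the activators, *Nfe2* was at 3.18, 4.73 and 3.32 TPM in control, 6.21, 7.95 and 8.16 TPM in *Chd4-ECko* and 5.43, 9.07 and 7.97 TPM in double mutant LSECs, both mutants wholly above control (0.84 ± 0.25, adjusted p = 0.230, and 0.83 ± 0.25, adjusted p = 0.178). *Gata1* was at 10.1, 11.6 and 7.72 TPM in control and 16.6, 18.6 and 22.98 TPM in *Chd4-ECko* LSECs, again without overlap (0.92 ± 0.52, adjusted p = 0.965), and it passed when these groups were fitted alone (adjusted p = 0.0325). The means of 9 of 9 erythroid markers were above control in *Chd4-ECko* LSECs, none wholly, with sums of 128 to 292 TPM, and their part in the *Gata1* level was not tested. The FOG1 gene *Zfpm1* had estimates of 0.31, 0.04 and 0.24 in *Chd4-ECko*, *Brg1-ECko* and double mutants. For *Klf1* they were 0.86, 0.14 and -0.02, with overlap in each. Without *Brg1-ECko* replicate 1 the *Brg1-ECko* estimates became -0.28 for *Zfpm1*, -0.47 for *Klf1* and -0.54 for *Gata1*, against 0.10 for *Gata1* with it.

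Among the repressors, *Bcl11a* was at 14.9, 8.09 and 12.49 TPM in control LSECs. *Chd4-ECko* LSECs held 18.4, 10.2 and 15.6 TPM, *Brg1-ECko* LSECs 19.3, 11.6 and 9.07 TPM and double mutant LSECs 13.7, 14.8 and 18.4 TPM, and each mutant overlaps with control (lowest adjusted p = 0.526). *Zbtb7a* was at 18.6, 21.1 and 16.5 TPM in control and 25.2, 21.9 and 24.6 TPM in *Chd4-ECko* LSECs, just above it (0.34 ± 0.15, adjusted p = 0.751). *Nr2c1* was at 8.14, 8.94 and 9.96 TPM in double mutants, above all control and all *Chd4-ECko* libraries (0.53 ± 0.19, adjusted p = 0.260 against control). *Sox6* was wholly above control in *Brg1-ECko* (0.36 ± 0.24, adjusted p = 0.641) and in double mutant LSECs (0.42 ± 0.24, adjusted p = 0.473), at levels of at most 3.67 TPM.

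*Lin28b* was at 6.91, 7.02 and 5.29 TPM in control LSECs. The 3 values were 11.3, 7.82 and 10.7 TPM for *Chd4-ECko*, 26.7, 10.6 and 11.2 TPM for *Brg1-ECko* and 9.46, 13.1 and 9.70 TPM for double mutant LSECs. All 9 mutant libraries exceeded all controls, with the largest estimate in *Brg1-ECko* (1.10 ± 0.28, adjusted p = 0.250, and 0.69 without replicate 1). Hepatoblast and endothelial markers moved beside it. Over the 12 LSEC libraries *Lin28b* ran with the mean log level of the 8 hepatoblast markers (r = 0.84) and against that of the 8 endothelial markers (r = -0.69). Both values include *Brg1-ECko* replicate 1 and were not computed without it. The hepatoblast markers summed to 3137 to 6379.9 TPM in control LSECs, and to 3295 to 5202 TPM, 5917 to 25906 TPM and 4711 to 7386 TPM in LSECs of *Chd4-ECko*, *Brg1-ECko* and double mutant embryos. The means of 0, 8 and 8 of the 8 were above control, and 0, 3 and 1 lay wholly above it. Their part in the *Lin28b* level was not tested.

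Between double mutant and *Chd4-ECko* LSECs none of the 10 passed (limma, 1 with an unadjusted p under 0.05, against 0.0372% and 10.4% of all genes). There *Klf1* was the 1 regulator wholly lower in the double mutant (2.25% of all genes), at 25.6, 34.4 and 16.0 TPM against 48.5, 35.9 and 53.7 TPM (-0.88 ± 0.56, adjusted p = 0.553), and *Nr2c1* the 1 wholly higher (13.6%).

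**Figure D2:**
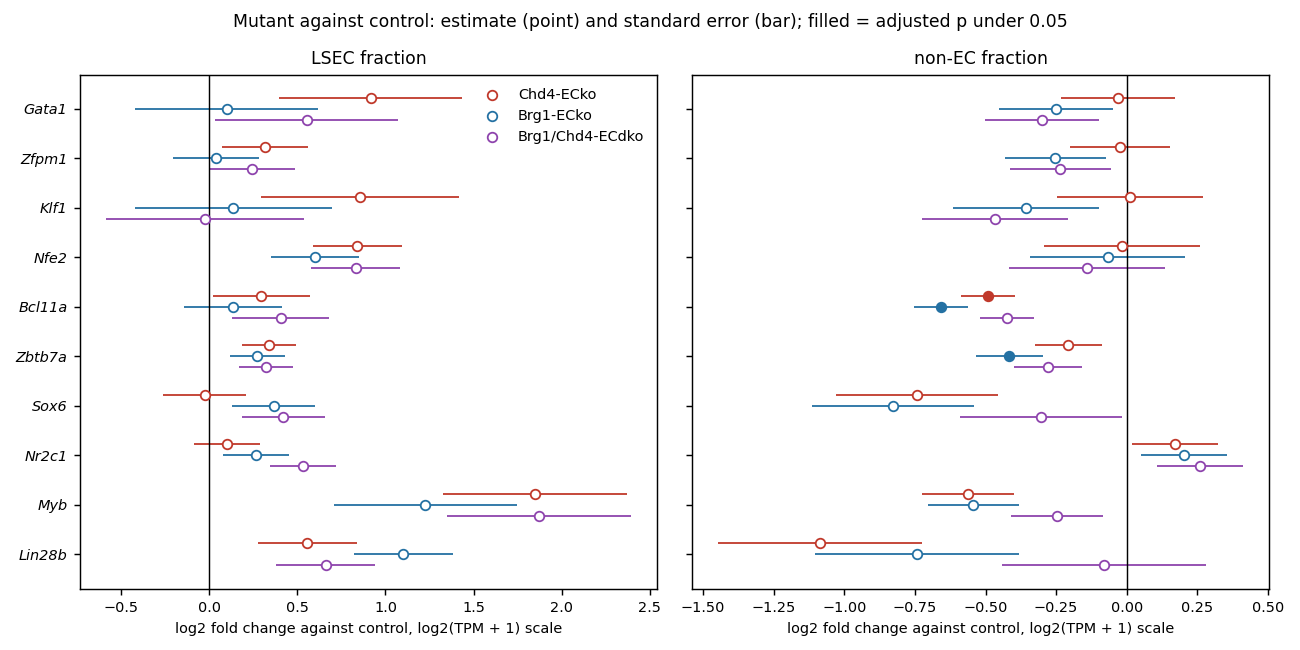
Log2 fold change of each regulator in the 3 mutants against control on the log2(TPM + 1) scale, in LSECs (left) and non-EC cells (right), with bars for the standard error. Filled points passed the test, namely *Bcl11a* in *Chd4-ECko* and *Brg1-ECko* and *Zbtb7a* in *Brg1-ECko* non-EC cells, and no LSEC point is filled.

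In non-EC cells, the fraction with the higher erythroid marker levels, *Bcl11a* fell in both single mutants. Control cells held 68.6, 67.9 and 68.1 TPM, a narrow range, and *Chd4-ECko* cells 48.9, 50.8 and 45.1 TPM (-0.49 ± 0.10, 0.711-fold, adjusted p = 0.0139). In *Brg1-ECko* cells it was at 38.7, 44.1 and 46.3 TPM (-0.66 ± 0.10, 0.634-fold, adjusted p = 0.00231). Double mutant cells held 47.7, 56.3 and 48.3 TPM and missed the threshold (-0.42 ± 0.10, 0.746-fold, adjusted p = 0.0682). All 9 mutant libraries thus lay below all 3 controls. The *Brg1-ECko* call held under all 15 alternatives run (adjusted p up to 0.0130), and the *Chd4-ECko* call under 14 of 15, all but the fit of these groups alone (adjusted p = 0.0735). Neither change exceeded 1 on the log2 scale.

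*Zbtb7a* fell in *Brg1-ECko* cells, from 66.2, 65.4 and 56.2 TPM in control to 38.6, 50.3 and 51.9 TPM, without overlap (-0.42 ± 0.12, 0.750-fold, adjusted p = 0.0439). This call was lost in 9 of 15 alternatives, with adjusted p up to 0.146, among them leaving out any 1 *Brg1-ECko* library, control replicate 1 or control replicate 2. *Chd4-ECko* cells held 49.9, 53.9 and 58.3 TPM, which overlaps with control (-0.21 ± 0.12, adjusted p = 0.240). Double mutant cells held 53.2, 50.2 and 50.4 TPM, below all controls (-0.28 ± 0.12, adjusted p = 0.378).

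Thus 1 of the 10 regulators passed in *Chd4-ECko*, 2 in *Brg1-ECko* and none in double mutant non-EC cells, where 9.48%, 11.7% and 0.581% of all genes passed (limma). The 3 calls were decreases, which 3.31% of all genes had in *Chd4-ECko* and 2.76% in *Brg1-ECko*. An unadjusted p under 0.05 was reached by 4, 4 and 2 of the 10 and by 33.9%, 28% and 11.7% of all genes. Mutant libraries lay wholly below control for 2, 5 and 5 of the 10, as for 11.6%, 18% and 8.01% of all genes. The median log2 fold changes of the 10 were -0.12, -0.39 and -0.26, against 0.01, 0.02 and 0.01 over all genes.

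**Figure D3:**
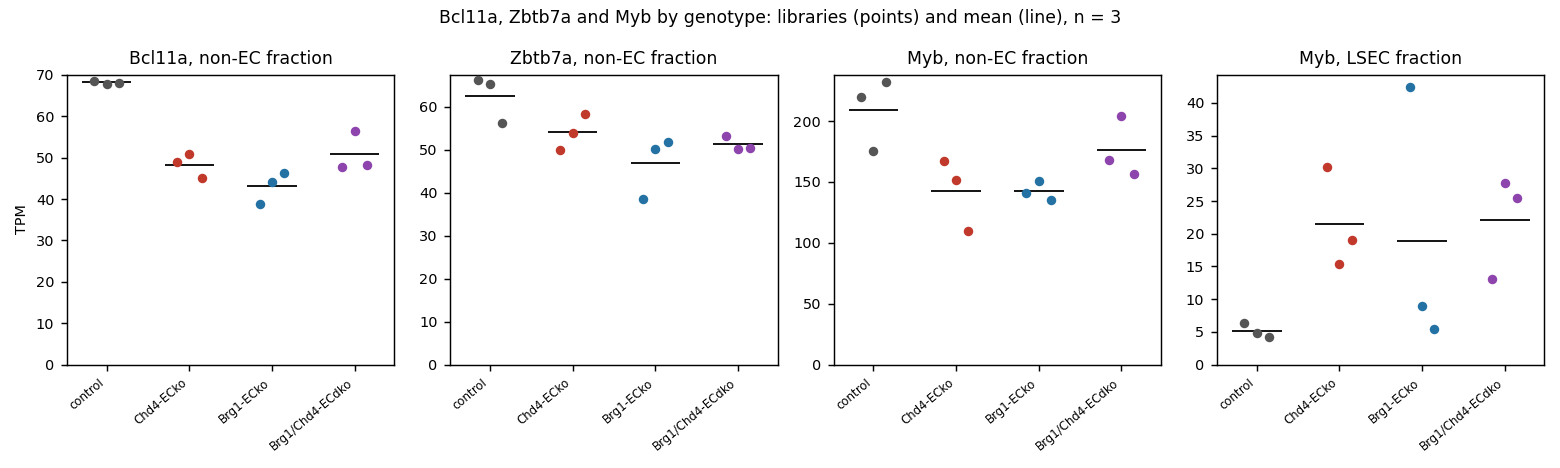
TPM of *Bcl11a*, *Zbtb7a* and *Myb* in non-EC libraries and of *Myb* in LSEC libraries by genotype, on linear axes from 0, with a point per library and a line at the mean of 3. Control *Bcl11a* lies between 67.9 and 68.6 TPM and no mutant non-EC library exceeds 56.3 TPM, while *Myb* lies below control in both single mutants of the non-EC fraction and above it in *Chd4-ECko* and double mutant LSECs.

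*Myb* was at 219, 176 and 232 TPM in control non-EC cells, 167, 151 and 109 TPM in *Chd4-ECko* and 141, 151 and 135 TPM in *Brg1-ECko* cells, with no overlap. Neither single mutant passed (-0.56 ± 0.16, adjusted p = 0.0511, and -0.54 ± 0.16, adjusted p = 0.0511), and each did in 5 of 15 alternatives. The double mutant, at 168, 204 and 156 TPM, overlaps with control. *Lin28b* spread widely among *Chd4-ECko* cells, at 46.3, 21.8 and 12.3 TPM against 54.1, 45.3 and 52.4 TPM in control (-1.08 ± 0.36, adjusted p = 0.0715). Without *Chd4-ECko* replicate 1 its decrease passed (-1.57, adjusted p = 0.00185), as did that of *Myb* (-0.69, adjusted p = 0.00813). Passing was common in that setting, with 4592 genes of the table against 1159 with all libraries. In *Brg1-ECko* cells *Lin28b* was at 36.5, 21.3 and 33.8 TPM, all below control (-0.74 ± 0.36, adjusted p = 0.205), and in double mutant cells at 49.8, 52.4 and 41.5 TPM, overlapping with it.

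*Sox6* was at 6.93, 10.8 and 5.03 TPM in control and 2.51, 4.73 and 4.02 TPM in *Brg1-ECko* cells, without overlap (-0.83 ± 0.29, adjusted p = 0.0851). *Chd4-ECko* cells held 3.16, 3.43 and 5.55 TPM, with overlap (-0.74 ± 0.29, adjusted p = 0.0989). At such levels the pseudocount of 1 TPM shrinks a fold change. *Nr2c1* was the one regulator with positive estimates in all 3 non-EC mutants (0.17, 0.20 and 0.26). The activators had estimates near 0 in *Chd4-ECko* cells, -0.03 for *Gata1*, -0.02 for *Zfpm1*, 0.01 for *Klf1* and -0.02 for *Nfe2*, but their libraries were far apart, with *Klf1* at 228, 391.9 and 518 TPM. In double mutant cells *Klf1* was at 240.1, 268 and 268 TPM, below control at 321, 459 and 308 TPM (-0.46 ± 0.26, adjusted p = 0.567). *Gata1* (98.5, 106 and 106 against 126, 145 and 115 TPM) and *Zfpm1* (219, 237 and 238 against 291, 276 and 250.4 TPM) also lay wholly below control there.

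No gene passed between double mutant and *Chd4-ECko* non-EC cells (0% of 12223 genes tested by limma, 21.8% with an unadjusted p under 0.05, and 1 of the 10 regulators among these). That count rests on *Chd4-ECko* replicate 1, which held the lowest *Gata1*, *Klf1* and *Nfe2* of the 12 non-EC libraries. Without it 3943 genes passed, and 4 of the 10 regulators were among them, so passing was not particular to the regulators. *Gata1* (-0.53, adjusted p = 0.0169), *Zfpm1* (-0.43, adjusted p = 0.0308) and *Klf1* (-0.80, adjusted p = 0.0114) were then lower and *Lin28b* (1.49, adjusted p = 0.00383) higher in the double mutant.

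The makeup of the non-EC fraction moved beside these decreases. The 8 hepatoblast markers summed to 15906 to 17747 TPM in control cells, against 23711 to 32680 TPM for *Chd4-ECko*, 23158 to 34198 TPM for *Brg1-ECko* and 20213 to 27027 TPM for double mutant cells, and 8, 8 and 7 of the 8 lay wholly above control. The 9 erythroid markers summed to 732 to 1719 TPM in control and 386 to 745 TPM in *Brg1-ECko* cells, 5 of them wholly below control, against 1 in each of the other mutants. Over the 12 non-EC libraries, which share genotypes, *Bcl11a* ran against the mean log level of the hepatoblast markers with r = -0.92, *Sox6* with r = -0.85, *Zbtb7a* with r = -0.76, *Myb* with r = -0.70 and *Gata1* with r = -0.45. The part of the cell makeup in the lower levels was not tested.

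As a view relative to another erythroid gene, TPM were divided by those of *Gata1* in the same library, a ratio chosen after seeing the data. For *Bcl11a* it was 0.546, 0.469 and 0.594 in control and 0.419, 0.3504 and 0.434 in *Brg1-ECko* non-EC cells, which do not overlap. In *Chd4-ECko* cells it was 0.566, 0.376 and 0.269 and in double mutant cells 0.484, 0.530 and 0.455, both overlapping with control. For *Zbtb7a* it was 0.526, 0.451 and 0.489 in control and 0.418, 0.400 and 0.487 in *Brg1-ECko* cells, with overlap. The ratio of *Myb* to *Gata1* in LSECs was 0.625, 0.413 and 0.539 in control, 1.82, 0.827 and 0.830 in *Chd4-ECko* and 1.12, 1.55 and 1.70 in double mutants, both mutants wholly above control. In non-EC cells it was 1.75, 1.21 and 2.02 in control, 1.93, 1.12 and 0.652 in *Chd4-ECko* and 1.52, 1.20 and 1.27 in *Brg1-ECko* cells, and both single mutants overlap with control. *Zbtb7a* to *Gata1* in LSECs was 1.83, 1.82 and 2.14 in control and 1.52, 1.18 and 1.07 in *Chd4-ECko*, wholly lower. Double mutant LSECs had 1.77, 1.295 and 1.80, also wholly lower. *Sox6* to *Gata1* in non-EC cells was 0.0551, 0.0747 and 0.0438 in control and wholly lower in *Chd4-ECko* (0.0366, 0.0255 and 0.0331) and *Brg1-ECko* cells (0.0272, 0.0376 and 0.0377). In LSECs it was 0.193, 0.243 and 0.260 in control and wholly lower in *Chd4-ECko* (0.142, 0.0627 and 0.151). *Klf1* to *Gata1* in non-EC cells was 2.55, 3.17 and 2.69 in control and wholly lower in double mutants (2.44, 2.52 and 2.52). How many genes of the table have ratios that separate in this way was not counted.

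Whether a mutant departs from control by another amount in LSECs than in non-EC cells was asked with an interaction term over all 24 libraries. The estimate was higher in LSECs for 9, 10 and 10 of the 10 regulators in *Chd4-ECko*, *Brg1-ECko* and double mutants, with medians of 0.82, 0.68 and 0.73 against 0.03, 0.05 and 0.12 over all genes. The *Brg1-ECko* count rests on LSEC *Brg1-ECko* replicate 1. Without it the differences were -0.29 for *Gata1*, -0.11 for *Klf1*, -0.09 for *Nr2c1* and -0.03 for *Zfpm1*, while the others stayed positive. None of the 10 passed without pairing of embryos (limma, 5, 5 and 4 with an unadjusted p under 0.05, against 19.1%, 17.9% and 7.57% of all genes), where 1.02%, 1.04% and 0.0581% of all genes did.

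The LSEC and non-EC libraries that share a genotype and a number deviated together in 12 of 12 pairs, although the labels do not say that they come from the same embryo. With each such pair as a block, 2.49%, 3.31% and 0.181% of all genes passed. In *Chd4-ECko*, *Myb* (2.41, adjusted p = 0.0275 with and 0.0593 without the block) and *Lin28b* (1.64, adjusted p = 0.0489 and 0.105) were among them. In *Brg1-ECko*, *Lin28b* (1.84, adjusted p = 0.0281 and 0.0648) and *Zbtb7a* (0.69, adjusted p = 0.0433 and 0.0814) were, and in the double mutant none of the 10. Both *Brg1-ECko* calls rest on LSEC *Brg1-ECko* replicate 1, for without it the blocked values were 1.46 for *Lin28b* (adjusted p = 0.0823) and 0.54 for *Zbtb7a* (adjusted p = 0.120). Both *Chd4-ECko* calls held without it (adjusted p = 0.000546 for *Myb* and 0.0191 for *Lin28b*). Without LSEC *Brg1-ECko* replicate 1 and without a block, *Myb* (adjusted p = 0.00207) and *Lin28b* (adjusted p = 0.0411) passed in *Chd4-ECko*, and *Myb* in the double mutant (2.12, adjusted p = 0.0200). The LSEC mean of *Myb* was 2.44% of its non-EC mean in control embryos, and 15.1%, 13.3% and 12.6% for *Chd4-ECko*, *Brg1-ECko* and double mutant embryos. The *Brg1-ECko* share was 5.09% without LSEC replicate 1.

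The embryonic globin genes, targets of the repressors, are set beside them here. *Hbb-bh1* was at 2.67, 3.84 and 1.85 TPM in control, 102, 789 and 328 TPM in *Chd4-ECko* and 129.6, 135 and 146 TPM in double mutant LSECs, far above control in both (6.34 ± 0.52, adjusted p = 2.94e-05, and 5.22 ± 0.52, adjusted p = 0.000451). In those mutants *Bcl11a* was at 10.2 to 18.4 and 13.7 to 18.4 TPM, against 8.09 to 14.9 TPM in control. *Hba-x* and *Hbb-y*, the other embryonic genes, also rose in *Chd4-ECko* LSECs (4.46 and 3.44) and in double mutant LSECs (3.11 and 2.30). In *Brg1-ECko* LSECs none of the 3 passed (limma, 1 with an unadjusted p under 0.05), with 0.07 ± 0.52, adjusted p = 0.979 for *Hbb-bh1*, and with 0.82 ± 0.42, adjusted p = 0.561 for *Hba-x* and 1.12 ± 0.44, adjusted p = 0.443 for *Hbb-y*, both wholly above control.

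In *Chd4-ECko* non-EC cells, where *Bcl11a* was lower, *Hbb-bh1* was at 21.4, 149 and 107 TPM against 12.03, 10.4 and 3.40 TPM in control (3.04 ± 0.68, adjusted p = 0.0245). In *Brg1-ECko* non-EC cells, which had the lowest mean *Bcl11a* and *Zbtb7a*, it was at 1.58, 6.76 and 2.28 TPM (-1.11 ± 0.68, adjusted p = 0.305). *Hbb-y* (4.01 ± 0.54, adjusted p = 0.00455) and *Hba-x* (3.63 ± 0.68, adjusted p = 0.0123) also rose in *Chd4-ECko* non-EC cells. In double mutant non-EC cells *Hbb-bh1* was at 21.4, 30.6 and 45.2 TPM (1.88 ± 0.68, adjusted p = 0.257). None of the 7 globin genes passed in *Brg1-ECko* non-EC cells (limma), and *Hbb-y* was the one with an unadjusted p under 0.05, at 16.0, 11.1 and 4.14 TPM against 5.69, 3.16 and 2.03 TPM in control (1.22 ± 0.54, adjusted p = 0.171). The 4 adult globin genes passed in no mutant of either fraction (limma, 0 with an unadjusted p under 0.05), and *Hbb-bt* spread from 326 to 3130.1 TPM among control non-EC cells alone. *Hba-a1* and *Hba-a2* are near-identical copies, and *Hbb-bt* and *Hbb-bs* closely related, so reads may be split between them.

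**Figure D4:**
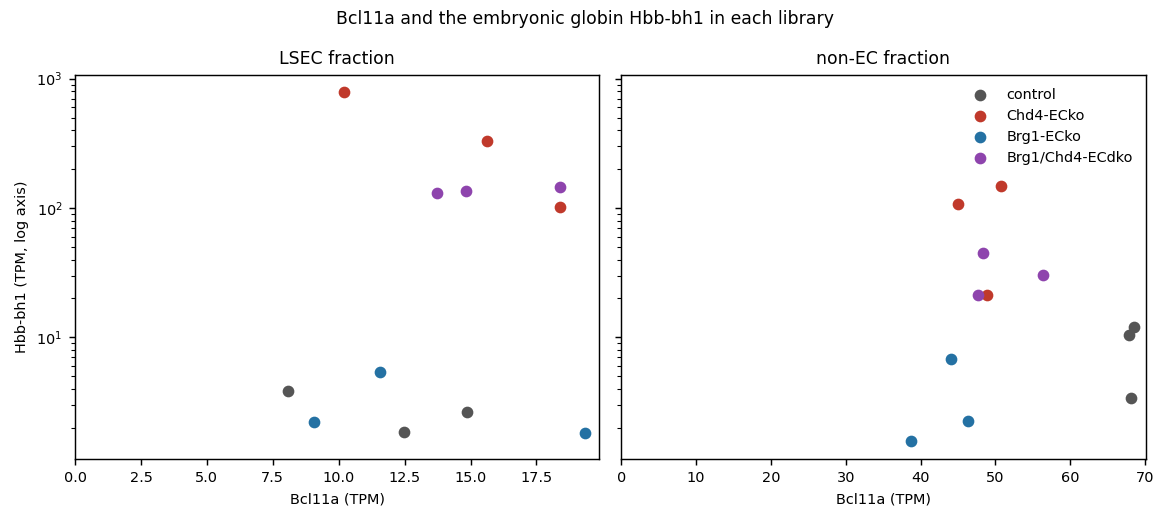
*Hbb-bh1* (TPM, log axis) against *Bcl11a* (TPM) in each library, LSECs on the left and non-EC cells on the right, coloured by genotype. In LSECs the *Chd4-ECko* and double mutant libraries stand at 102 to 789 TPM of *Hbb-bh1* with *Bcl11a* ranges that overlap control, and in non-EC cells the *Brg1-ECko* libraries combine the lowest mean *Bcl11a* with 1.58 to 6.76 TPM of *Hbb-bh1*.

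Few of the 46 other erythroid and globin regulators passed in LSECs, where 0.707%, 0.0223% and 0.87% of all genes passed in the 3 mutants. In *Chd4-ECko* LSECs 1 rose, *Spi1*, which encodes the myeloid factor PU.1, an antagonist of GATA1, from 9.45, 7.74 and 12.2 TPM to 15.4, 23.4 and 28.7 TPM (1.10 ± 0.22, adjusted p = 0.0351). The means of 8 of the 8 macrophage and myeloid markers were above control in the same libraries, 5 of them wholly, and their part in the *Spi1* level was not tested. In double mutant LSECs 2 rose. *Gata2*, which precedes GATA1 in progenitors and is also an endothelial factor, went from 10.5, 8.49 and 7.49 TPM to 14.0, 17.5 and 19.0 TPM (0.86 ± 0.18, adjusted p = 0.0409), and *Jak2*, the kinase of the erythropoietin receptor, had 0.66 ± 0.13, adjusted p = 0.0370. None passed in *Brg1-ECko* LSECs (limma, 7 with an unadjusted p under 0.05, against 9.68% of all genes). The medians of the list were 0.10, 0.14 and 0.28 in *Chd4-ECko*, *Brg1-ECko* and double mutants, against 0.01, 0.08 and 0.16 over all genes.

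In non-EC cells, 5 of the 46 fell in *Chd4-ECko* and 4 in *Brg1-ECko*, none rose, and none passed in the double mutant (limma, 5 with an unadjusted p under 0.05). Of all genes 3.31% and 2.76% fell in these mutants, and 0.581% passed and 11.7% had an unadjusted p under 0.05 in the double mutant. *Ikzf1*, which encodes IKAROS, a partner of NuRD, fell in both, from 73.5, 72.0 and 67.7 TPM in control to 57.1, 56.1 and 55.1 TPM in *Chd4-ECko* (-0.34 ± 0.07, adjusted p = 0.0239) and 44.9, 49.6 and 48.9 TPM in *Brg1-ECko* cells (-0.56 ± 0.07, adjusted p = 0.00157). Its 3 control libraries lay above all 9 mutant libraries, as for *Bcl11a*. The histone deacetylase gene *Hdac2* (-0.80), *Jak2* (-0.998), *Bach1* (-0.87), whose product represses globin genes when heme is scarce, and *Runx1* (-0.90), a factor of blood stem cells, also fell in *Chd4-ECko*. In *Brg1-ECko* the methyl-CpG binder *Mbd2* (-0.36), the cell cycle gene *Tfdp2* (-0.67) and the corepressor gene *Rcor1* (-0.53) also fell. The medians of the list were -0.12, -0.21 and -0.10, against 0.01, 0.02 and 0.01 over all genes.

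Of the 12 other genes of the LIN28B and let-7 axis none passed in LSECs of any mutant (limma, 1, 4 and 5 with an unadjusted p under 0.05, against 6.49%, 9.68% and 12.1%). In *Brg1-ECko* non-EC cells 1 of the 12 rose and 2 fell, where 11.7% of all genes passed, and none passed in the other 2 non-EC mutants (limma, 5 in *Chd4-ECko* and 5 in double mutants with an unadjusted p under 0.05, against 33.9% and 11.7% of all genes). The paralog *Lin28a* rose in *Brg1-ECko* cells, from 13.6, 8.18 and 13.8 TPM to 29.2, 18.8 and 26.0 TPM (1.01 ± 0.24, adjusted p = 0.0198), whereas *Lin28b* lay below control there. All 8 hepatoblast markers lay wholly above control in these libraries, and their part in the *Lin28a* level was not tested. The let-7 axis genes *Igf1r* (-0.57) and *Plagl2* (-0.44) fell. Of the 23 KLF1 and GATA1 targets and erythroid markers, 7 fell and none rose in *Brg1-ECko* non-EC cells (median -0.76), where 2.76% of all genes fell and their median was 0.02, among them *Tfrc*, the transferrin receptor gene (-1.16 ± 0.32, adjusted p = 0.0382). In *Chd4-ECko* non-EC cells 3 fell, *Tfrc* and *Ermap* among them (3.31% of all genes). In double mutant LSECs 1 fell, where 0.87% of all genes passed in either direction. This was the water channel gene *Aqp1*, from 120.3, 193 and 133 TPM to 52.2, 57.1 and 66.4 TPM (-1.31 ± 0.19, adjusted p = 0.00631). Unlike the 20 genes of the list that were lower in control LSECs, *Aqp1* was higher there than in control non-EC cells, at 22.2, 29.6 and 29.8 TPM (2.39 ± 0.38, adjusted p = 1.19e-05).

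Ranking the 4 genotype means of each gene in each fraction gives 60 pairs of neighbours, and the libraries of 56 overlapped, so that the order is mostly unresolved. The 4 that did not were *Lin28b* in LSECs (*Chd4-ECko* above control), *Bcl11a* and *Zfpm1* in non-EC cells (control above double mutant) and *Lin28b* in non-EC cells (double mutant above *Brg1-ECko*). *Bcl11a* in non-EC cells ran 68.2, 50.8, 48.3 and 43.0 TPM in control, double mutant, *Chd4-ECko* and *Brg1-ECko*. *Myb* in LSECs ran 22.1, 21.5, 19.0 and 5.09 TPM in double mutant, *Chd4-ECko*, *Brg1-ECko* and control.

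Among themselves, the activators moved together in non-EC cells. On the log2 scale over 12 libraries, *Gata1* ran with *Klf1* (r = 0.98), *Zfpm1* (r = 0.96) and *Nfe2* (r = 0.84), and *Myb* with *Lin28b* (r = 0.81), whereas *Gata1* and *Lin28b* gave r = -0.61. In LSECs the closest pair was *Zbtb7a* with *Myb* (r = 0.89), then *Gata1* with *Klf1* (r = 0.88). Of 45 pairs, 18 were above 0.5 in non-EC cells and 30 in LSECs. The libraries share genotypes and the total to which TPM are scaled.

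The genes whose levels ran most like each regulator over 12 libraries were sought among 10424 genes in LSECs and 9439 in non-EC cells with a mean of at least 5 TPM. In LSECs *Gata1* ran with *Cited4*, *Gfi1b* and *Epor* (r = 0.971, 0.943 and 0.940), *Klf1* with *Add2*, *Ermap* and *Pklr* (r = 0.975, 0.974 and 0.966) and *Myb* with *Rbm38*, *Ptpn7* and *Adgrg1* (r = 0.950, 0.947 and 0.946). In non-EC cells *Gata1* ran with *Glrx5*, *E2f4* and *Klf1* (r = 0.982, 0.982 and 0.980) and *Klf1* with *Gps2*, *Tango2* and *Kcnn4* (r = 0.992, 0.987 and 0.985). *Bcl11a* ran there with *Ikzf1*, *Ell2* and *Nxpe2* (r = 0.955, 0.955 and 0.947), *Sox6* with *Gadd45a* and *Slc25a37* (r = 0.940 and 0.939) and *Myb* with *Nkap* and *Lims1* (r = 0.971 and 0.963).

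*Lin28b* in non-EC cells ran with *Eif5*, *Wdr43* and *Ddx50* (r = 0.997, 0.996 and 0.995), the closest of all. *Eif5*, which encodes a translation initiation factor, was at 319, 279 and 299.7 TPM in control and 277, 167 and 106 TPM in *Chd4-ECko* cells, in the same order of replicates as *Lin28b* in the latter. Only 12 to 15 of the 60 like genes were found again when 1 replicate number was left out, so the names describe these libraries.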

How the data were processed

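LSEC and non-EC libraries of E12.5 livers were analysed, 12 per fraction. The authors selected poly-A RNA, mapped trimmed reads to GRCm39 with CLC Genomics Workbench and deposited TPM, which hold no read counts. The study names 1 sequencing depth for its RNA-seq, and the reads of each library are not given in the sources used here. The 8 deposited group means were not used. Replicates correlated at 0.962 to 0.993, and no libraries were identical. The study treats a replicate as 1 embryo, and p-values measure the spread between these samples.

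Differences were tested two-sided by limma 3.58.1 under R 4.3.3 with a mean-variance trend on log2(TPM + 1), and adjusted over all genes (Benjamini-Hochberg). Genes had to reach 1 TPM in 3 libraries, which left 13444 in LSECs, 12223 in non-EC cells and 13775 over both. Passing means an adjusted p under 0.05. Each fraction had a model of its 12 libraries, and both together served comparisons of fractions. On simulated LSEC data (13444 genes) 200 of 200 genes changed by 3 on the log2 scale were recovered, with 7 false calls. The largest LSEC estimate of a regulator against control was 1.87. Changes of that size or smaller were not simulated, so the simulation does not show whether they would be found.

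Replicate numbers come from the labels. Deviations from group means correlated in 12 of 12 same-numbered pairs of fractions (0.124 to 0.411), so blocked values are printed for differences between fractions in the effect of a mutant. The comparison of the control fractions is printed without the block. With it *Nr2c1* again missed (limma, adjusted p = 0.496) and the other regulators passed. The genes, lists and markers were chosen with earlier results of these data known. Named are the 10 genes, 7 globin genes, both targeted genes, at most 5 passing regulators of the list per comparison and 3 like genes per regulator. Further genes named from the other lists and markers were picked after their values were seen. A few genes that these rules name are not reported here. Positions and promoters were read from GRCm39 with GENCODE annotation. Alternatives were a pseudocount of 0.1 TPM, a mean of 5 TPM or no filter, quantile normalization, TPM without 8 globin or 13 mitochondrial genes, no trend, the block, groups alone, a fold threshold and leaving out each replicate.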

Additional observations from a re-analysis of the deposited data

Results flagged for a closer look

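The response of the fractions differed for 4 values by a test of the difference itself, with LSEC and non-EC libraries of the same genotype and number as a block. In *Chd4-ECko* embryos the LSEC change exceeded the non-EC change by 2.41 on the log2 scale for *Myb* (adjusted p = 0.0275) and by 1.64 for *Lin28b* (adjusted p = 0.0489). In *Brg1-ECko* embryos it did so by 0.69 for *Zbtb7a* (adjusted p = 0.0433) and by 1.84 for *Lin28b* (adjusted p = 0.0281). All 3 *Chd4-ECko* libraries were above control for *Myb* in LSECs and all 3 below in non-EC cells, and the same was so for *Lin28b* in *Brg1-ECko* embryos. Without the block none of the 4 passed (adjusted p from 0.0593 to 0.105). Without LSEC *Brg1-ECko* replicate 1, the library rich in hepatoblast markers, the blocked values were 1.46 for *Lin28b* (adjusted p = 0.0823) and 0.54 for *Zbtb7a* (adjusted p = 0.120) in *Brg1-ECko*, while both *Chd4-ECko* values passed. In LSECs *Lin28b* ran with the hepatoblast markers (r = 0.84 over 12 libraries), and in non-EC cells it did not (r = -0.39). The LSEC value includes *Brg1-ECko* replicate 1 and was not computed without it. In *Chd4-ECko* LSECs the means of 0 of the 8 hepatoblast markers were above control. The part of these markers in the differences was not tested.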

How the results depend on the processing

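Of 2072 fold changes of single regulators recomputed under the alternatives, no called one reversed, 10 lost a call and 43 gained one. Of those without a call 74 changed sign, 14 of them by more than the standard error of the main estimate. Shifts without a change of sign or call were not counted. The main numbers of regulators passing were 0 in every LSEC mutant, 1, 2 and 0 in *Chd4-ECko*, *Brg1-ECko* and double mutant non-EC cells and 0 for each difference between fractions. In LSECs the number was 2 in *Chd4-ECko* and 1 in double mutants with the groups alone, and 1 in each without *Brg1-ECko* replicate 1, a choice made after seeing the data (0 to 1 leaving out single libraries). In *Chd4-ECko* non-EC cells it was 2 with a mean of 5 TPM, quantile normalization, no globin genes or the replicate block, 0 with the groups alone or a log2 fold change above 1, and 1 to 3 leaving out single libraries. In *Brg1-ECko* non-EC cells it was 3 with a mean of 5 TPM, no globin genes, the replicate block or the groups alone, 1 with no filter or no trend, 0 with the fold threshold and 1 to 2 leaving out single libraries. In double mutant non-EC cells it was 1 with the replicate block (*Bcl11a*, adjusted p = 0.0460), and against *Chd4-ECko* 0 to 4 leaving out single libraries. Between fractions it was 1 in *Chd4-ECko* with quantile normalization, no mitochondrial genes or groups alone and 2 with the replicate block (0 to 2 leaving out single libraries), 1 in *Brg1-ECko* with quantile normalization and 2 with the block (0 to 3), and 1 in double mutants with groups alone (0 to 1). With the block and without LSEC *Brg1-ECko* replicate 1, chosen after seeing the data, it was 2, 0 and 1 in the 3 mutants. Of 60 like genes 12 to 15 were kept leaving out a replicate number, 59 without globin genes and 42 without mitochondrial genes. Of 60 neighbouring genotype means 41, 46 and 48 overlapped without replicate 1, 2 and 3. The genotype with the highest mean was kept for 2 to 7 of 10 regulators in LSECs and 4 to 10 in non-EC cells leaving out a replicate number, with the fewest without replicate 3. The cause was not tested.

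Within fractions the numbers were not taken to pair the libraries, since only 13 of 18 LSEC and 9 of 18 non-EC pairs correlated above 0.1. As a hint from the data, 10 of 12 LSEC and 6 of 12 non-EC libraries correlated best with their own number. The replicate block moved all genes passing from 95 to 154, 3 to 14 and 117 to 178 in *Chd4-ECko*, *Brg1-ECko* and double mutant LSECs and from 1159 to 1723, 1426 to 1697 and 71 to 196 in non-EC cells. Over all alternatives these counts ran 29 to 191, 0 to 14, 24 to 313, 165 to 4592, 568 to 2069 and 0 to 196. For differences between fractions the block moved them from 140 to 343, 143 to 456 and 8 to 25, and they ran 16 to 1913, 49 to 456 and 0 to 92 over all alternatives. Without non-EC *Chd4-ECko* replicate 1 the *Chd4-ECko* count was 1913, and without LSEC control replicate 2 it was 16. With 3 libraries a group and no read counts, small changes of low genes such as *Sox6* could not be resolved.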
